A study of Homo sapiens with 12 samples.

Results

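The proteasome genes were followed in HK-2 cells, an immortalised line of human renal proximal tubular epithelial cells, exposed to a compound the labels call Ra or to its control vehicle. Members were taken by symbol: PSMA, PSMB, PSMC, PSMD, PSME, PSMF or PSMG followed by digits only, on a probe set that carries 1 gene symbol. Of 42 such genes, 41 had at least 3 of the 12 arrays at 5 log2 units or more, among 10050 genes that passed the same filter. All 41 were above that level on all 12 arrays, so no member was kept through 1 group alone. PSMA8, the testis-specific alpha subunit, did not pass and reached at most 3.37 log2 units on any array. PSMA6 and PSME2 share their probe sets with other symbols, and PSMB11, PSMC5, PSMD7 and PSMD13 had no probe set of their own in the annotation used, so these 6 genes were not analysed here.

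There were 4 groups of 3 arrays, each labelled as 3 biological replicates: Ra for 12 h, control for 12 h, Ra for 48 h and control for 48 h. The series looks for expression signatures of kidney toxicity among several compounds, and these samples are the ones for Ra. All groups were the same cell line, grown in DMEM and Ham's F12 with EGF, hydrocortisone, insulin, transferrin and selenite, and treated when nearly confluent. The labels name neither the dose nor what Ra is. Of 14 markers of the proximal tubule, 1 passed the filter (PAX8), and of those left out no array exceeded 4.51 log2 units, whereas 6 of 7 general epithelial markers passed. Of markers of other cells, 3 of 8 for fibroblasts, 1 of 6 for endothelium, 2 of 4 for podocytes and 0 of 7 for immune cells passed the filter, and 0 of these passed limma's test with Ra at either time. Of the cells' own markers, both calls were at 12 h: PAX8 fell by 0.46 ± 0.09 (SE, limma adjusted p = 0.0225) and EPCAM, 1 of the 6 epithelial genes, rose by 0.34 ± 0.07 (limma adjusted p = 0.0254), neither of which passed in a fit of all 12 arrays (adjusted p = 0.688 for both by limma), and their part in the results was not tested. Where the labels do not say how the cultures were kept apart, p-values measure the spread between these samples only.

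The proteasome is the chamber in which cells cut up proteins tagged with ubiquitin. Its 20S core is a stack of rings, with outer rings of alpha subunits that gate the entrance and inner rings of beta subunits, of which PSMB5, PSMB6 and PSMB7 carry the active sites. The 19S cap recognises ubiquitin chains, removes them and threads the substrate through a ring of ATPases, while other activators (PSME) or an inhibitor (PSMF1) can take its place at the end of the core. Dedicated chaperones (PSMG for the core, PSMD5, PSMD9 and PSMD10 for the cap) assist assembly and leave the finished particle. Interferon exchanges the active subunits for PSMB8, PSMB9 and PSMB10, which form the immunoproteasome. When proteasomes are inhibited, the transcription factor NFE2L1 raises the subunit genes through antioxidant response elements, which the related factor NFE2L2 also binds, each paired with a small MAF protein.

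RefSeq (GRCh38.p14) gave promoters for 35 of the 41 members. In the 250 bases before the annotated start, 10 of these 35 (28.6%) held the core of an antioxidant response element, TGACNNNGC, on either strand, and 3013 of all 27305 promoters (11.0%) did. The CCAAT box (CCAAT, either strand) was in 15 members (42.9%) and in 33.0% of all promoters. These matches describe letters, not binding. The antioxidant response element core was present in PSMB3, PSMB9, PSMD3, PSMD5, PSMD9, PSMD12, PSME1, PSME4, PSMG1 and PSMG2. It was absent from this window of PSMB5, PSMC1, PSMC3, PSMD1 and PSME3. PSMD5, PSMD3 and PSMD12 were among those that passed the test at 12 h described further on, and their windows are shown because they hold the core. Each is written 5′ to 3′ on the gene's strand, with the match in capitals. The match starts 134 bases before the start of PSMD5 (chr9:120842923-120843172, minus strand), 37 bases before that of PSMD3 (chr17:39980557-39980806, plus strand) and 165 bases before that of PSMD12 (chr17:67366578-67366827, minus strand).
PSMD5: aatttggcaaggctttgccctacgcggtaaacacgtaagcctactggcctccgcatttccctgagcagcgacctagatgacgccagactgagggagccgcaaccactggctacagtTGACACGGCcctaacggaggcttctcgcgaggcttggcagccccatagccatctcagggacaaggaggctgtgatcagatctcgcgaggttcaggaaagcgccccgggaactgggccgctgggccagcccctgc
PSMD3: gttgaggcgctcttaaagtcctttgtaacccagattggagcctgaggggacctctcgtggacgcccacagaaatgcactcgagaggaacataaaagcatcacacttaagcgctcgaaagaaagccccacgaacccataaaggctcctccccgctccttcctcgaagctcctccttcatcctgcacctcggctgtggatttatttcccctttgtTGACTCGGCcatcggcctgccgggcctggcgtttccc
PSMD12: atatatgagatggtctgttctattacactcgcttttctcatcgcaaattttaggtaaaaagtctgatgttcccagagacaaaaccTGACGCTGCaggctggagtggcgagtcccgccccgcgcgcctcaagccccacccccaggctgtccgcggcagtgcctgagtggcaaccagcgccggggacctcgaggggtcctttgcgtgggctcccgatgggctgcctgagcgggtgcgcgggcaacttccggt

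Values are GCRMA log2 expression values, in which 1 unit is a factor of 2 in signal, and the number of arrays limits the precision. Replicates lay close together at 12 h and further apart at 48 h. The median SD of a member among 3 replicates was 0.11 in the Ra group and 0.078 in the control group of 12 h, and 0.37 in the Ra group and 0.19 in the control group of 48 h. Replicate 2 of Ra at 48 h stood apart from the other 11 arrays. The median of all genes on it was -0.65 relative to the control mean at 12 h, while on the other arrays it lay between -0.04 and 0.03. All 41 members were lowest on this array among the Ra arrays of 48 h, and 34 were lowest on it among all 12 arrays. Each comparison was therefore fitted on its own 6 arrays with limma, with Benjamini-Hochberg adjustment over all 10050 genes at 0.05. Medians over the members and most differences of single genes that include this array are given with and without it. Those of PSMD10, of PSME1 and of the other probe sets of a gene are given with it only.

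At 12 h Ra-treated cells had lower levels of 6 proteasome genes and a higher level of none (0 of 41) by limma's test. They were PSMD5, a chaperone of cap assembly, PSME3, a nuclear activator, the cap subunits PSMD1, PSMD3 and PSMD12, and PSMB5, the chymotrypsin-like active subunit. The falls were small, between 1.20-fold and 1.42-fold. Of all genes 6.25% fell and 7.34% rose by the same rule, and 14.6% of the members fell. Mean levels were lower with Ra for 34 of the 41 members, against 48% of all genes. The median difference was -0.14 log2 units over the members and 0.01 over all genes. Fewer cells of one kind and less RNA per cell cannot be told apart in such bulk samples.

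PSMD5 showed the most even fall. Its levels were 10.00, 10.01 and 10.10 log2 units with Ra at 12 h, against 10.49, 10.51 and 10.48 in control cells. Every Ra array was below every control array by several times the spread within either group. The difference was -0.46 ± 0.07 (SE, n = 3 each), a 1.37-fold fall with a limma adjusted p of 0.011. PSMD9, the second cap chaperone, had 11.12, 11.13 and 11.21 with Ra and 11.34, 11.27 and 11.33 in control cells, a difference of -0.16 ± 0.06 that did not pass (limma adjusted p = 0.131) although the arrays did not overlap. PSMD10, the third, differed by -0.05 ± 0.11.

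PSME3, which encodes the activator PA28 gamma, had 10.74, 10.55 and 10.79 log2 units with Ra at 12 h, against 11.12, 11.12 and 11.37 in control cells. These groups did not overlap either. It had the largest fall among the members at this time, -0.51 ± 0.10 or 1.42-fold (limma adjusted p = 0.0205), and its 3 other measured probe sets gave -0.50, -0.55 and -0.58. PSME1, the PA28 subunit known from antigen processing, had 11.14, 11.13 and 11.25 with Ra and 11.06, 11.04 and 11.12 in control cells, a difference of 0.10 ± 0.07 (adjusted p = 0.338 by limma). PSME4, the activator PA200, had 9.14, 9.12 and 8.88 with Ra and 9.24, 9.28 and 9.04 in control cells. These arrays overlapped, and the difference of -0.14 ± 0.11 did not pass (limma adjusted p = 0.431). Its other probe sets had the opposite sign, 0.18 and 0.01.

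Among cap subunits, 3 of 14 passed at 12 h, all of them non-ATPases. PSMD1, a scaffold of the base, had 11.32, 11.33 and 11.30 log2 units with Ra, against 11.73, 11.61 and 11.49 in control cells. Its Ra arrays were almost identical while the control arrays spread over a wider range, all of it higher. The difference was -0.29 ± 0.07 (limma adjusted p = 0.0415), and its other probe set gave -0.25. PSMD3, a lid subunit, had 10.30, 10.28 and 10.33 with Ra and 10.63, 10.49 and 10.59 in control cells. Again no arrays overlapped, and the difference was -0.27 ± 0.07 (limma adjusted p = 0.0453). PSMD12, also of the lid, had 11.10, 10.92 and 11.22 with Ra and 11.45, 11.35 and 11.43 in control cells, a difference of -0.33 ± 0.09 (limma adjusted p = 0.0456) that its other probe set gave as -0.39. The nearest control array was above all of the Ra arrays for this gene too.

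Of the 5 measured ATPases of the cap none passed (0 of 5), with differences between -0.25 and -0.10. PSMC1, whose tail docks into the alpha ring, had the largest: 12.12, 11.92 and 12.21 with Ra, against 12.38, 12.31 and 12.30 in control cells, or -0.25 ± 0.08 (limma adjusted p = 0.0803). All its Ra arrays were lower. PSMD14, the deubiquitinase that strips chains from substrates, had 12.60, 12.49 and 12.81 with Ra and 12.69, 12.60 and 12.71 in control cells, which overlapped (difference -0.03 ± 0.09).

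In the 20S core, 1 of 13 constitutive subunits passed, although 12 of the 13 had a lower mean with Ra and the median difference was -0.16. PSMB5 had 12.03, 11.82 and 12.08 log2 units with Ra at 12 h, against 12.18, 12.38 and 12.40 in control cells. The groups did not overlap, and the difference was -0.34 ± 0.09 or 1.27-fold (limma adjusted p = 0.0455). PSMB6, the caspase-like subunit, had 11.76, 11.75 and 11.98 with Ra and 12.06, 12.09 and 12.25 in control cells, and its -0.30 ± 0.09 lay just outside the threshold (limma adjusted p = 0.054). PSMB7, the trypsin-like subunit, had 12.94, 12.77 and 13.00 with Ra and 13.13, 13.10 and 13.25 in control cells (-0.25 ± 0.07, limma adjusted p = 0.0577). For all 3 active subunits every Ra array was below every control array. PSMB4, a structural beta subunit, had equal means on the probe set used: 13.36, 13.23 and 13.33 with Ra and 13.32, 13.23 and 13.36 in control cells. Its other probe sets above the filter gave -0.0006 and -0.49. PSMB3, also structural, had the most positive difference of the core, 0.20 ± 0.10, from 12.62, 12.44 and 12.51 with Ra and 12.23, 12.21 and 12.53 in control cells, which overlapped.

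The alpha ring was the most uniform group at 12 h. Its 6 measured subunits differed by -0.23 to -0.13, and none passed (0 of 6). PSMA7 had 12.75, 12.71 and 12.99 log2 units with Ra, against 13.04, 13.07 and 13.03 in control cells, a difference of -0.23 ± 0.08 (limma adjusted p = 0.0859). PSMA4 had 12.70, 12.66 and 12.80 with Ra and 12.91, 12.89 and 12.94 in control cells, a difference of -0.19 ± 0.06 (limma adjusted p = 0.0571). Neither gene's arrays overlapped. Over the 6 genes the median difference from the control mean was -0.18, -0.24 and -0.08 on the 3 Ra arrays, against -0.01, -0.01 and 0.01 on the control arrays.

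The assembly chaperones of the core were split in sign at 12 h, with 2 of 4 means lower, and the inhibitor had a higher mean. PSMG2 had 12.09, 12.17 and 12.21 with Ra at 12 h, against 12.04, 11.88 and 12.04 in control cells, a difference of 0.17 ± 0.07 (limma adjusted p = 0.144) with no overlap. PSMG1, its partner in a heterodimer, had 11.55, 11.51 and 11.56 with Ra and 11.78, 11.62 and 11.60 in control cells, and its difference was -0.13 ± 0.07 with no overlap, close to the median of the members. PSMG3 and PSMG4 differed by -0.11 ± 0.10 and 0.07 ± 0.09. PSMF1 had 10.48, 10.35 and 10.42 with Ra and 10.22, 10.29 and 10.42 in control cells, a difference of 0.11 ± 0.08. None of these passed (0 of 5 for the PSMG genes and PSMF1), and only PSMG2 among them lay higher on all Ra arrays.

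**Figure D1:**
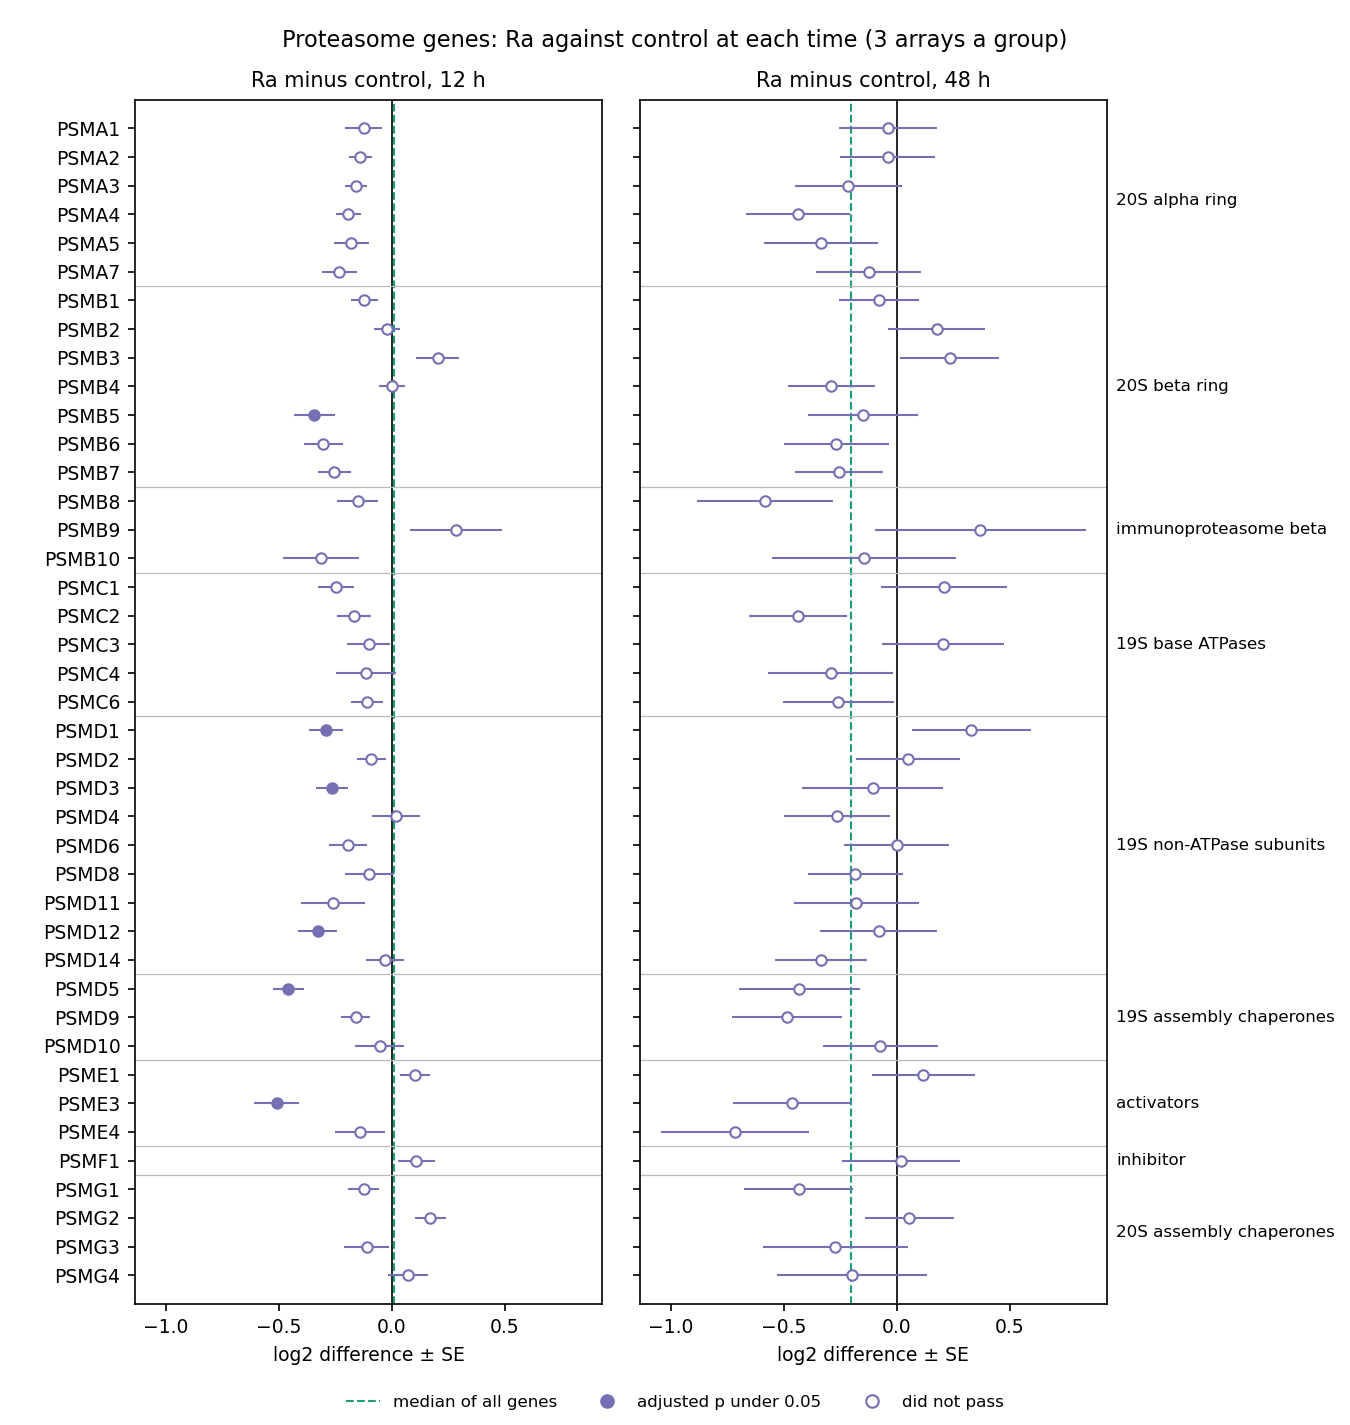
Log2 difference of Ra minus control with its SE for each proteasome gene, at 12 h on the left and 48 h on the right, ordered by role, with filled points for genes that passed limma's test and a dashed line at the median of all 10050 genes. At 12 h 6 points are filled and 34 of 41 lie below 0, and at 48 h no point is filled and the errors are wider.

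Without overlap between their arrays, 17 of 41 members (41.5%) were lower with Ra at 12 h, against 16.9% of all genes. On the same rule 2 of 41 were higher (PSME1 and PSMG2), against 18.4%. At an unadjusted p under 0.05 there were 16 of 41 members, against 30.8% of all genes. The labels do not say that replicate numbers mark pairs, and pairs at 12 h were inferred from these same data. With replicate as a block 14 of 41 members (34.1%) fell and 0 rose by limma, against 10.7% of all genes that fell. The added ones were PSMA4, PSMA7, PSMB6, PSMB7, PSMB10, PSMC1, PSMD6 and PSMD11. The calls also rest on how the spread was estimated. A single fit of all 12 arrays, whose spread includes the wider 48 h groups, called 0 of 41 members, against 0.0299% of all genes. In that fit 2 of 41 members had an unadjusted p under 0.05, against 7.47% of all genes. Without 1 array of the 12 h groups, the count was 1 without Ra replicate 1, without Ra replicate 2 or without control replicate 1. It was 2 without control replicate 2 or 3, and 9 without Ra replicate 3. In the same order, 132, 127, 154, 260, 214 and 624 of all 10050 genes fell, against 628 with all arrays. PSMD5 passed in each of these 6 fits.

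**Figure D2:**
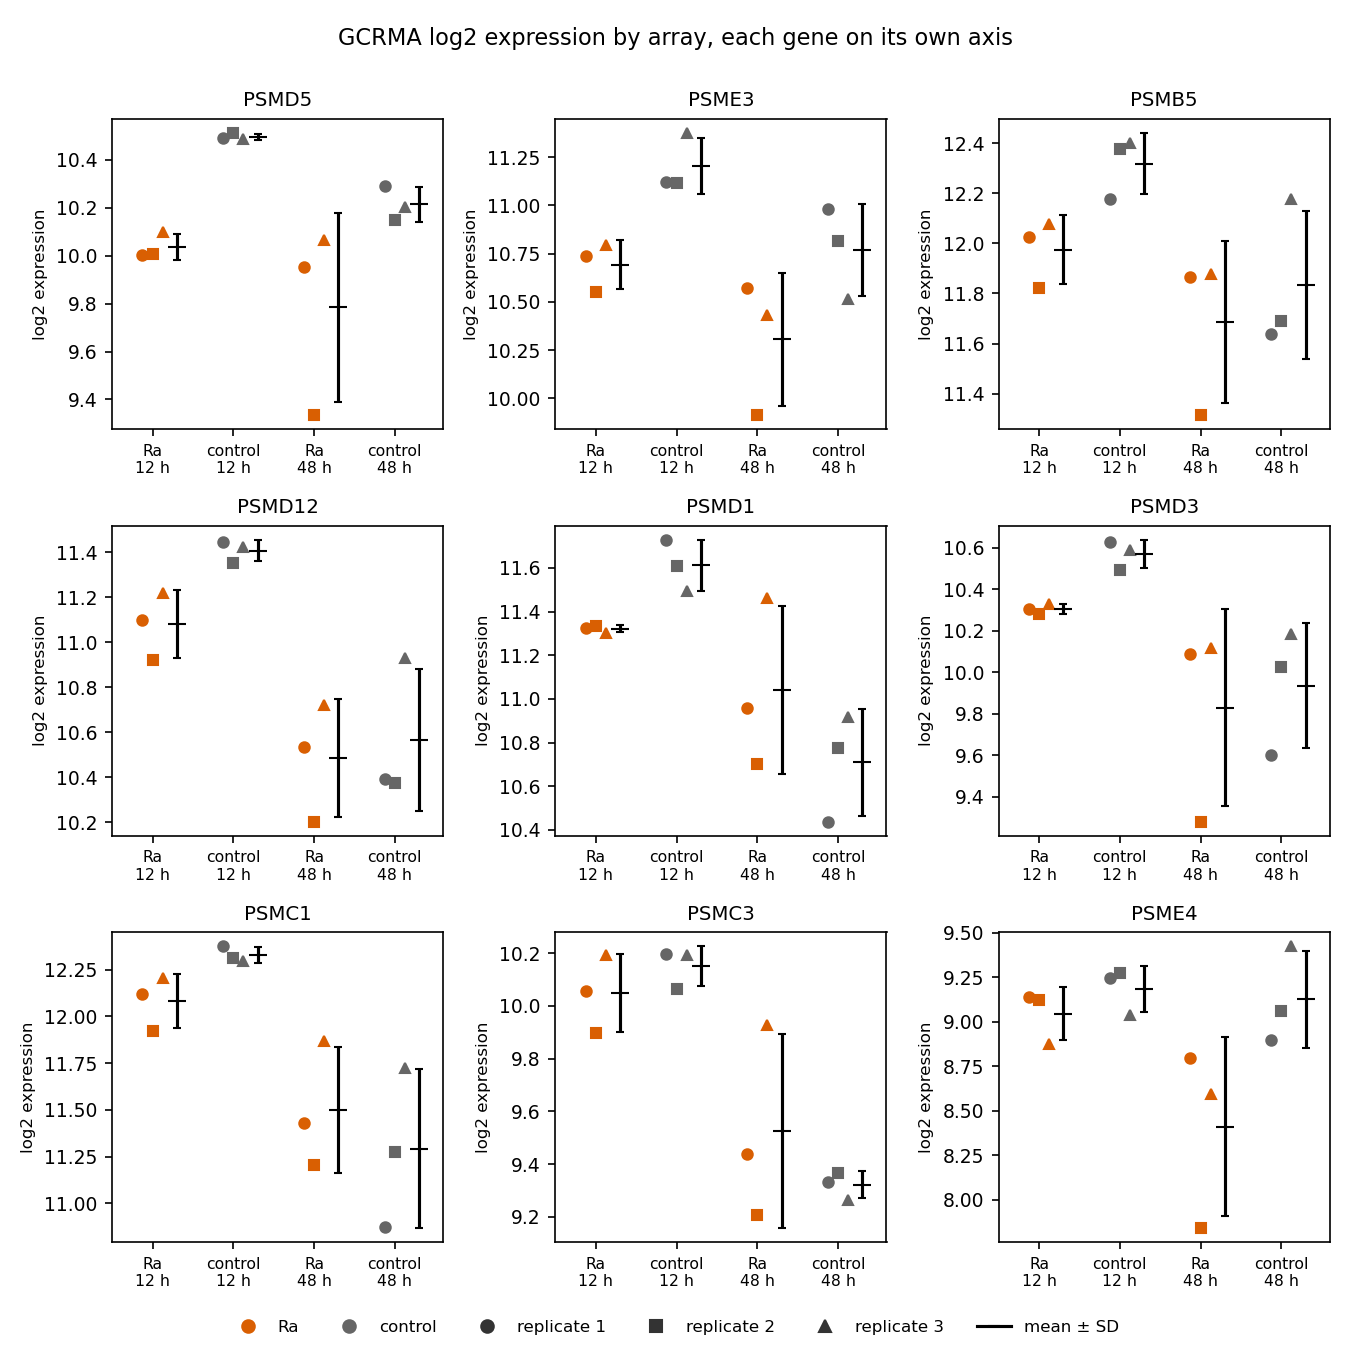
GCRMA log2 expression on each array for 9 proteasome genes, each on its own axis, with Ra in orange beside control in grey at 12 h and 48 h, a symbol for each replicate number and bars for the mean ± SD of 3 arrays. The 6 genes that passed at 12 h show no overlap there, and at 48 h Ra replicate 2 is the lowest Ra array for all 9 genes.

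The immunoproteasome subunits are set apart because interferon is known to induce them. None of the 3 passed at 12 h (0 of 3). PSMB8 had 9.56, 9.74 and 9.83 log2 units with Ra, against 9.84, 9.87 and 9.88 in control cells, a difference of -0.15 ± 0.09 (limma adjusted p = 0.294). All Ra arrays were lower, the nearest by a small step. PSMB9 had 7.95, 8.04 and 8.48 with Ra and 7.70, 7.65 and 8.27 in control cells, which overlapped, and its difference of 0.29 ± 0.20 was the most positive of all 41 members (limma adjusted p = 0.382). PSMB10 had 8.42, 8.24 and 8.82 with Ra and 8.74, 8.64 and 9.04 in control cells, also overlapping, with a difference of -0.32 ± 0.17 (limma adjusted p = 0.248, and 0.044 with the replicate block).

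Each immunoproteasome subunit was also set against the subunit it replaces, on the log2 scale and relative to the control mean of 12 h. For PSMB9 minus PSMB6 this gave 0.46, 0.55 and 0.76 with Ra at 12 h, against -0.10, -0.18 and 0.29 in control cells. Every Ra array was above every control array, and the difference was 0.59. Its two-sided exact permutation p was 0.1, the smallest that 3 arrays against 3 allow, and 0.3 after adjustment over the 3 pairs. For PSMB8 minus PSMB5 the difference was 0.19 (exact permutation p = 0.2) and for PSMB10 minus PSMB7 it was -0.06 (exact permutation p = 0.6). At 48 h the same 3 differences were 0.64 for PSMB9 minus PSMB6 (exact permutation p = 0.3), -0.43 for PSMB8 minus PSMB5 (exact p = 0.3) and 0.11 for PSMB10 minus PSMB7 (exact p = 0.6), with overlapping arrays in each pair. Without Ra replicate 2 they were 0.67, -0.38 and 0.23. None of these 6 comparisons reached 0.05, and none could.

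**Figure D3:**
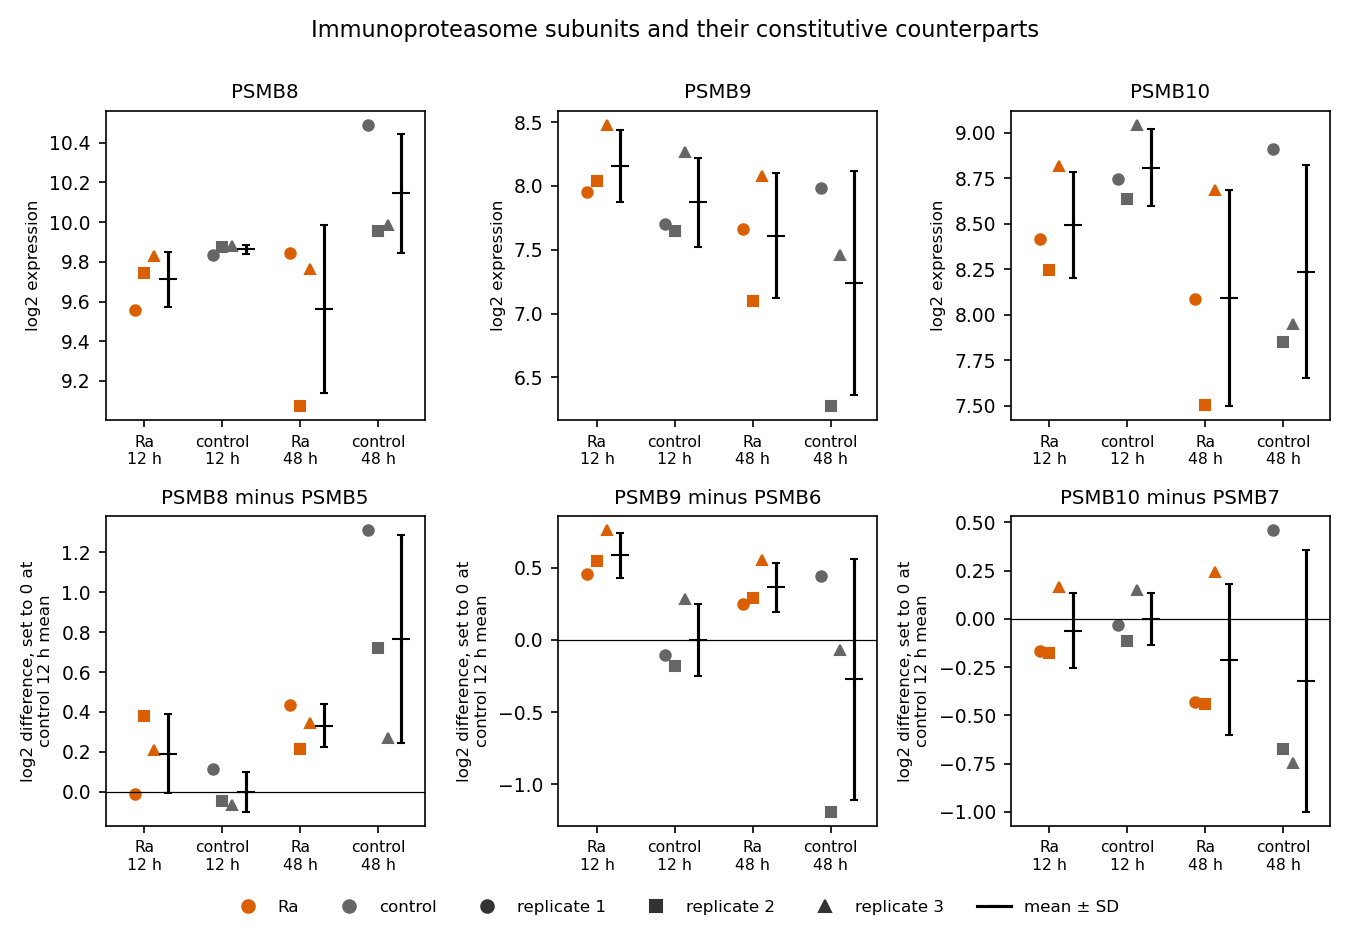
The upper row plots GCRMA log2 expression of PSMB8, PSMB9 and PSMB10 on each array, and the lower row each of them minus the constitutive subunit it replaces, set to 0 at the control mean of 12 h, with Ra in orange, control in grey and bars for the mean ± SD of 3 arrays. For PSMB9 minus PSMB6 the Ra arrays of 12 h (0.46, 0.55 and 0.76) lie above the control arrays.

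Genes of antigen processing, which use the peptides that proteasomes release, gave 2 rises among 12 measured at 12 h, where 7.34% of all genes rose. They were HLA-C by 0.28 ± 0.07 (limma adjusted p = 0.0449) and the peptide-trimming enzyme ERAP2 by 0.39 ± 0.10 (limma adjusted p = 0.0388). ERAP2 had 10.45, 10.64 and 10.33 log2 units with Ra and 10.14, 10.00 and 10.11 in control cells. The median difference of the 12 genes was 0.17. None of them passed at 48 h (0 of 12), and none at 12 h in the fit of all 12 arrays (0 of 12).

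At 48 h no proteasome gene passed limma's test (0 of 41), nor did any gene (0% of 10050). At an unadjusted p under 0.05 there were 0 members, against 17.4% of all genes. The means of 30 of 41 members (73.2%) were lower with Ra, against 67.1% of all genes. The median difference was -0.18 over the members and -0.20 over all genes. Without Ra replicate 2 the median was 0.05 over the members and 0.01 over all genes, and 16 of 41 members and 49% of all genes were lower. The median of the members was thus about that of all genes, with that array and without it. The fit of all 12 arrays called 0 of 41 members too, against 12.6% of all genes.

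The largest difference at 48 h was that of PSME4, the activator PA200. It had 8.79, 7.84 and 8.60 log2 units with Ra, against 8.90, 9.06 and 9.43 in control cells. No Ra array reached a control array, but the highest Ra array was close to the lowest control array. The difference was -0.72 ± 0.33 (limma adjusted p = 0.298) and -0.43 ± 0.21 without Ra replicate 2. Its other probe sets gave -0.88 and -1.72. PSMB8 followed with 9.85, 9.07 and 9.77 with Ra and 10.49, 9.96 and 9.99 in control cells, a difference of -0.58 ± 0.30 (limma adjusted p = 0.338) and -0.34 ± 0.21 without that array. In all, 8 of 41 members (19.5%) were lower with Ra at 48 h without overlap, against 18.6% of all genes, and 0 were higher, against 5.37%. The 8 were PSMA4, PSMB4, PSMB8, PSMC2, PSMD5, PSMD9, PSME4 and PSMG1.

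PSMD5 was among these 8, with 9.95, 9.33 and 10.06 log2 units with Ra at 48 h, against 10.29, 10.15 and 10.21 in control cells. Its difference was -0.43 ± 0.27 (limma adjusted p = 0.415) and -0.21 ± 0.14 without Ra replicate 2. PSMD9 gave 11.12, 10.46 and 11.06 with Ra and 11.51, 11.31 and 11.27 in control cells, -0.48 ± 0.24 with all arrays and -0.27 ± 0.14 without that one. PSMD5 and PSMD9 were thus lower on each Ra array at both times, as were PSMA4, PSMB8, PSMC2 and PSMG1. Of these, only PSMD5 at 12 h passed the test. PSMD10, the third cap chaperone, overlapped at both times. At 48 h it had 11.10, 10.47 and 11.15 with Ra, against 11.05, 10.76 and 11.13 in control cells, a difference of -0.07.

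PSME3 had 10.57, 9.91 and 10.43 with Ra at 48 h, against 10.98, 10.82 and 10.51 in control cells, which overlapped (-0.46 ± 0.26, and -0.27 ± 0.18 without Ra replicate 2). Its other probe sets, which were alike at 12 h, gave -0.09, -0.35 and 0.08 at 48 h. PSMB5 had 11.87, 11.31 and 11.88 with Ra and 11.64, 11.69 and 12.18 in control cells. The Ra arrays straddled the control arrays, and the difference was -0.15 ± 0.24, or 0.04 ± 0.19 without replicate 2. PSMA4 gave 12.39, 11.68 and 12.44 with Ra and 12.66, 12.52 and 12.63 in control cells, -0.44 ± 0.23 with all arrays and -0.19 ± 0.11 without replicate 2. PSMG1, PSMC2 and PSMB4, each with the largest difference of its role, gave -0.43 ± 0.24, -0.44 ± 0.22 and -0.29 ± 0.19, and -0.22, -0.23 and -0.09 without replicate 2.

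PSMD1 ran the other way at 48 h. It had 10.96, 10.70 and 11.46 log2 units with Ra, against 10.44, 10.77 and 10.92 in control cells. The groups overlapped, and the difference was 0.33 ± 0.26 (limma adjusted p = 0.523), or 0.50 ± 0.23 without Ra replicate 2. The ATPase genes PSMC1 and PSMC3 gave 0.21 ± 0.28 and 0.20 ± 0.27, and 0.36 without replicate 2 in both cases. For PSMD12 the difference was -0.08 ± 0.26, or 0.06 ± 0.22 without replicate 2, from 10.53, 10.20 and 10.72 with Ra and 10.39, 10.37 and 10.93 in control cells. PSMD3, with 10.09, 9.28 and 10.12 with Ra and 9.60, 10.02 and 10.18 in control cells, gave -0.11 ± 0.31, or 0.17 ± 0.21 without replicate 2. The sign of both thus turned with that array.

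A change of the Ra effect with time was tested as the effect at 48 h minus that at 12 h, on all 12 arrays. No member passed (0 of 41), and 2 genes of all did (0.0199%). The count over all genes was unstable: it was 320 (3.18%) without Ra replicate 2 of 48 h, 1041 without Ra replicate 1 of 48 h, 572 without control replicate 3 of 48 h, 1 or 2 without any other array, 944 after quantile normalization and 856 after centring of the arrays. No member passed with any array left out (0 of 41). PSMD1 had the largest difference, 0.62 ± 0.27 log2 units, with a limma adjusted p of 0.231, or 0.79 ± 0.22 without Ra replicate 2 of 48 h (limma adjusted p = 0.0699). It was the single member at an unadjusted p under 0.05, against 19.2% of all genes. After quantile normalization or centring of the arrays it passed. PSME4 had the most negative, -0.58 ± 0.34 (limma adjusted p = 0.372), or -0.29 ± 0.23 without that array. The median over the members was 0.02, and over all genes -0.19, and without that array 0.18 and 0.02. A fall that passed at 12 h and not at 48 h is therefore not shown to differ between the times.

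Between the times, levels were compared within control cells and within Ra-treated cells. In control cells 17 of 41 members (41.5%) had lower levels at 48 h than at 12 h and 0 had higher ones by limma's test. Of all genes 16.6% did in each direction. Among them were 8 of 13 constitutive core subunits (PSMA2, PSMA3, PSMA4, PSMA7, PSMB1, PSMB2, PSMB3 and PSMB6) and 8 of 14 cap subunits (PSMC1, PSMC3, PSMC6, PSMD1, PSMD2, PSMD3, PSMD6 and PSMD12), with the core chaperone PSMG4. No cap chaperone (0 of 3), activator (0 of 3) or immunoproteasome subunit (0 of 3) passed. Their median differences were -0.28, -0.06 and -0.57, and their lowest limma adjusted p were 0.0583, 0.0594 and 0.166, so a lack of change is not shown. The activator PSME3 differed by -0.43, and its other probe sets by -0.80, -0.50 and -1.41. It passed with the mean of its probe sets and after centring of the arrays. Means were lower at 48 h for 38 of 41 members, against 49.4% of all genes, and the median difference was -0.36 over the members and 0.01 over all genes. This comparison shares its control arrays with the comparisons of Ra and control, so their values are given side by side and not correlated.

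PSMC1 had the largest fall with time, 2.05-fold. Its levels were 10.87, 11.28 and 11.72 log2 units in control cells at 48 h, against 12.38, 12.31 and 12.30 at 12 h. The 48 h arrays spread widely, all below the tight 12 h arrays, and the difference was -1.04 ± 0.20 (limma adjusted p = 0.0108). PSMC3, another ATPase whose tail docks into the core, had 9.33, 9.37 and 9.27 at 48 h and 10.20, 10.06 and 10.19 at 12 h, a difference of -0.83 ± 0.10 with the lowest adjusted p of the members (0.00358 by limma). PSMC2, an ATPase of the same ring, had 12.32, 12.39 and 12.47 at 48 h and 12.59, 12.44 and 12.55 at 12 h. These overlapped, and the difference of -0.13 ± 0.08 did not pass.

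PSMD1 had 10.44, 10.77 and 10.92 log2 units in control cells at 48 h, against 11.73, 11.61 and 11.49 at 12 h (-0.90 ± 0.14, limma adjusted p = 0.00631), and its other probe set gave -0.95. PSMD12 had 10.39, 10.37 and 10.93 at 48 h and 11.45, 11.35 and 11.43 at 12 h (-0.84 ± 0.16, limma adjusted p = 0.0106). PSMA7 had 12.55, 12.40 and 12.66 at 48 h and 13.04, 13.07 and 13.03 at 12 h (-0.51 ± 0.09, limma adjusted p = 0.00709). In all 3 genes each 48 h array was below each 12 h array. PSMB8 was the single member higher at 48 h without overlap, by 0.28 ± 0.16, which did not pass (limma adjusted p = 0.211), against 24.8% of all genes higher without overlap. Lower without overlap were 24 of 41 members (58.5%), against 26% of all genes.

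In Ra-treated cells no gene passed between 48 h and 12 h (0% of all genes, 0 of 41 members). At an unadjusted p under 0.05 there were 7 of 41 members, against 8.39% of all genes. Means were lower at 48 h for 40 of the 41 members, against 76.1% of all genes, and the median was -0.39 over the members and -0.21 over all genes. Without Ra replicate 2 of 48 h, 38 of 41 members were lower, against 48.7% of all genes, and the medians were -0.18 and 0.01. The exception with all arrays was PSME1, at 0.04 ± 0.20. Without overlap between their arrays, 18 of 41 members (43.9%) were lower at 48 h, against 17% of all genes, and 0 were higher, against 2.49%.

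Single members illustrate this. PSMD12 had 10.53, 10.20 and 10.72 log2 units with Ra at 48 h, against 11.10, 10.92 and 11.22 with Ra at 12 h, a difference of -0.60 ± 0.21 (limma adjusted p = 0.587) and of -0.45 ± 0.13 without replicate 2. PSMC1 had 11.43, 11.21 and 11.87 at 48 h and 12.12, 11.92 and 12.21 at 12 h, a difference of -0.58 ± 0.21 and of -0.43 ± 0.16 without replicate 2. The arrays of the 2 times did not overlap for either gene. PSMD5 differed by -0.25 ± 0.25, and by -0.03 ± 0.10 without replicate 2, and 2 of its 3 Ra arrays of 48 h lay below all Ra arrays of 12 h.

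**Figure D4:**
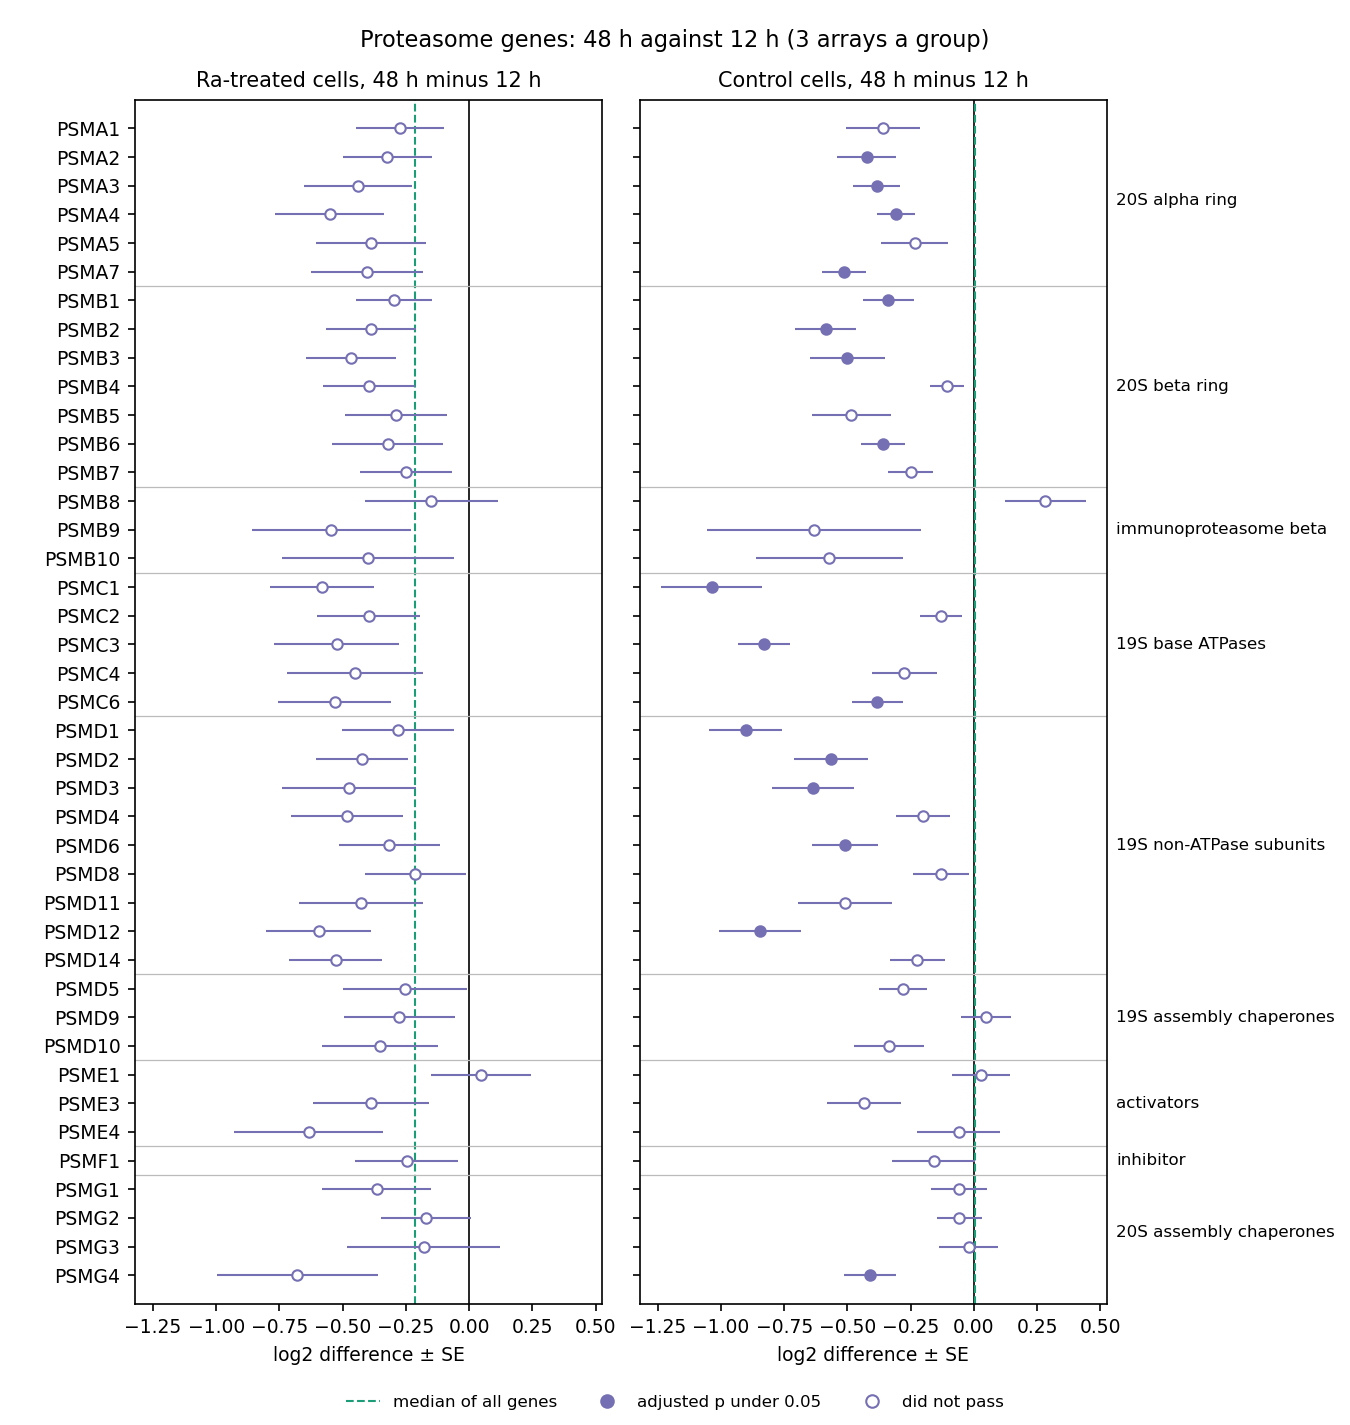
Log2 difference of 48 h minus 12 h with its SE for each proteasome gene, in Ra-treated cells on the left and control cells on the right, ordered by role, with filled points for genes that passed limma's test and a dashed line at the median of all 10050 genes. In control cells 17 points are filled, all below 0, and in Ra-treated cells none is filled although 40 of 41 lie below 0.

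The count in control cells moved with the arrays used. It was 6 without control replicate 1 of 12 h, and 5 without replicate 2 or without replicate 3 of 12 h. Of all 10050 genes, 704, 779 and 656 were lower in these fits, against 1669 with all arrays. The count was 16 without control replicate 1 of 48 h, 7 without replicate 2 and 23 without replicate 3. In these fits 1343, 873 and 2232 of all genes were lower. In the fit of all 12 arrays the count was 6 of 41, against 10.1% of all genes. The median difference stayed between -0.39 and -0.30 when any array was left out.

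By role, the median differences from the control mean of 12 h show how the arrays compare. For the alpha ring they were -0.45, -1.03 and -0.26 on the Ra arrays of 48 h, against -0.45, -0.48 and -0.26 on the control arrays of 48 h. For the beta ring they were -0.38, -0.79 and -0.19 with Ra and -0.47, -0.43 and -0.14 in control cells at 48 h. For the ATPases they were -0.38, -1.10 and -0.34 with Ra and -0.54, -0.24 and -0.39 in control cells, and for the non-ATPase cap subunits -0.47, -0.88 and -0.32 with Ra and -0.85, -0.54 and -0.26 in control cells. In these 4 roles, Ra replicates 1 and 3 of 48 h lay within the range of the control arrays of 48 h or at its edge, and replicate 2 lay below it. Other roles differed. For the activators the medians were -0.39, -1.29 and -0.59 on the Ra arrays of 48 h, against -0.23, -0.16 and 0.07 on the control arrays. This median of 3 genes was lower on all Ra arrays, but it falls on different genes on different arrays. Of the 3, only PSME4 was lower without overlap. PSME1 had 11.17, 10.96 and 11.53 with Ra at 48 h, against 11.25, 10.91 and 11.15 in control cells, a difference of 0.12 with overlap. For the immunoproteasome, also 3 genes, the medians were -0.21, -0.79 and -0.10 with Ra and 0.11, -0.96 and -0.41 in control cells. Replicate 2 lay inside the control range there, as it did for PSMF1.

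**Figure D5:**
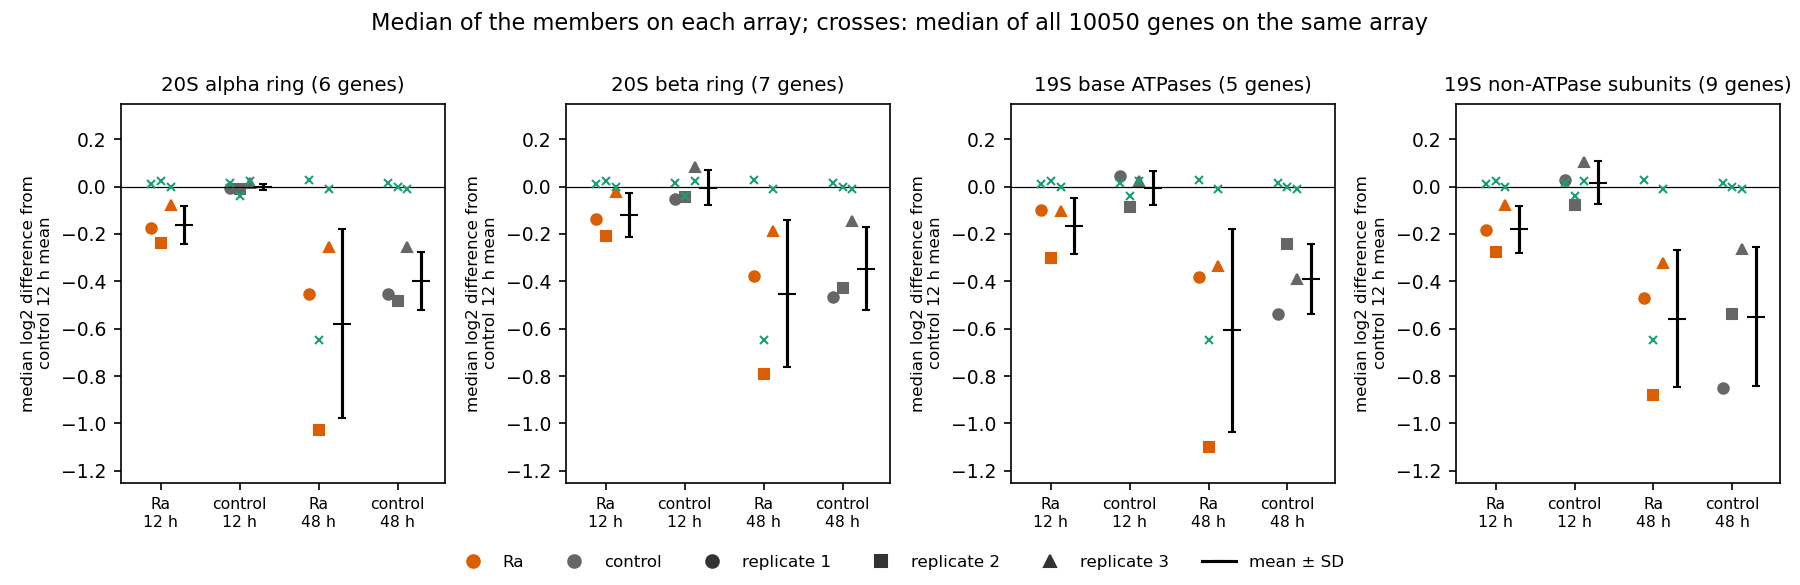
Median log2 difference from the control mean of 12 h over the members of 4 roles on each array, with Ra in orange, control in grey, bars for the mean ± SD of 3 arrays and crosses for the median of all 10050 genes on the same array. Most 12 h Ra arrays lie below the 12 h control arrays, the 48 h arrays lie lower in both treatments, and Ra replicate 2 of 48 h is lowest, as is its cross at -0.65.

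Partners outside the symbol rule gave few calls with Ra. Of 11 measured proteasome partners, 1 fell at 12 h, where 6.25% of all genes fell: UBE3C, a ubiquitin ligase that works on the proteasome, with 9.11, 9.06 and 8.76 log2 units with Ra and 9.40, 9.36 and 9.43 in control cells (-0.42 ± 0.11, limma adjusted p = 0.0412). POMP, the maturation factor of the core, had 13.02, 12.92 and 13.16 with Ra and 13.10, 13.08 and 13.14 in control cells, which overlapped (-0.07 ± 0.07). In control cells 4 partners had lower levels at 48 h than at 12 h, namely UBE3C (-0.69 ± 0.13), the small lid subunit SEM1 (-0.69 ± 0.12), the ubiquitin receptor ADRM1 (-0.50 ± 0.13) and POMP (-0.46 ± 0.12), and 1 was higher, PAAF1 (0.48 ± 0.15), against 16.6% of all genes in each direction. SEM1, ADRM1 and PAAF1 were named after their values were seen. The median over the 11 partners was -0.12 at 12 h with Ra and -0.18 with time in control cells. None passed with Ra at 48 h (0 of 11).

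Of 6 measured genes for NFE2L1, its relatives and its processing, 2 rose and 1 fell with Ra at 12 h, against 7.34% and 6.25% of all genes. None of the 3 passed in the fit of all 12 arrays, nor did UBE3C. MAFF, a small MAF partner of NFE2L1 and NFE2L2, had 11.38, 11.02 and 10.77 log2 units with Ra, against 10.34, 9.99 and 10.10 in control cells, a rise of 0.91 ± 0.16 (limma adjusted p = 0.0148). NFE2L2 had 11.87, 11.73 and 11.48 with Ra and 11.36, 11.12 and 11.20 in control cells, a rise of 0.47 ± 0.11 (limma adjusted p = 0.0333). VCP, the segregase that delivers substrates to the proteasome and helps release NFE2L1 from the membrane, had 11.23, 11.26 and 11.17 with Ra and 11.55, 11.42 and 11.43 in control cells, a fall of -0.25 ± 0.07 (limma adjusted p = 0.0456). In none of these 3 genes did the arrays overlap. The other genes of this list, the small MAF gene MAFG and NGLY1, which encodes a deglycosylase that acts on NFE2L1, differed by -0.002 ± 0.22 and 0.06 ± 0.08.

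NFE2L1 itself had 10.91, 10.78 and 10.81 log2 units with Ra at 12 h, against 10.82, 10.53 and 10.76 in control cells, an overlap (0.13 ± 0.09, limma adjusted p = 0.368). At 48 h it had 11.15, 10.47 and 10.89 with Ra, against 11.92, 11.49 and 11.32 in control cells. Every Ra array was lower, but the difference of -0.74 ± 0.26 did not pass (limma adjusted p = 0.239), and it was -0.56 ± 0.22 without Ra replicate 2. In control cells NFE2L1 was 0.88 ± 0.17 higher at 48 h than at 12 h (limma adjusted p = 0.0114), NFE2L2 0.90 ± 0.16 (limma adjusted p = 0.00918) and MAFF 1.17 ± 0.20 (limma adjusted p = 0.00715), in the same arrays in which 17 proteasome genes were lower. RNA levels of these factors are not a measure of their activity, which depends on processing and on the protein's stability.

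Of the 41 members, 15 had other probe sets above the filter, 23 in all. At 12 h 17 of these 23 had the sign of the probe set used for the gene, at 48 h 18, between 48 h and 12 h in control cells 21, and in Ra-treated cells 23. PSMB2 was the clearest disagreement: the probe set used gave -0.02 for Ra at 12 h, and the others 0.35 and -0.42.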

How the data were processed

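Total RNA of 12 HK-2 samples was hybridised to Affymetrix 3′ expression arrays, 3 arrays in each of 4 groups named by the labels. The deposited log2 values were made by the authors with GCRMA, per the submitters' processing notes, and its version and settings were not stated there. GCRMA shrinks low signals. All members were above 5 log2 units on every array, and the lowest value was 6.28, for PSMB9 on control replicate 2 of 48 h. No 2 arrays were identical (0 pairs). Of 54675 probe sets, the platform annotation gave 1 symbol to 41097, several to 1801 and none to 11777. Those with 1 symbol and at least 3 arrays at 5 log2 units or more were kept (17339), and the one with the highest mean stood for its gene (10050 genes). Members, role lists, partner lists and tests were chosen with earlier results of these data known, among them the wider spread at 48 h, which led to a separate fit of 6 arrays for each comparison.

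Each comparison was fitted in R 4.3.3 with limma 3.58.1, with a mean per group and moderation with an intensity trend (4 residual degrees of freedom; 8 for the difference of effects, on 12 arrays). Values of immunoproteasome pairs were compared with two-sided exact permutation tests. The named members were those past the test at 12 h, the largest difference of each role at 12 h and at 48 h, the immunoproteasome subunits with their counterparts, the PSME genes, the 5 of lowest p in other comparisons and up to 3 called genes of each partner list with NFE2L1 and POMP. Same-numbered arrays of Ra and control at 12 h deviated together from their group means over all genes (r = 0.18, 0.42 and 0.34). Differently numbered arrays gave -0.40 to -0.0040, but deviations from a mean of 3 sum to 0, so these values are not independent of the same-numbered ones. Over the members the same-numbered values were 0.07, 0.50 and 0.58, and the others -0.55 to 0.31. The labels share these numbers without calling them pairs, and the numbers were taken as pairs at 12 h. At 48 h (0.30, -0.22 and 0.10) they were not. The main fits used no pairs, and replicate numbers entered only the replicate block. Alternatives were other filters, probe sets, normalizations, variance models, arrays and the replicate block. Promoters were read from RefSeq tables (GRCh38.p14), with pandas 2.3.3, and plots drawn with matplotlib 3.10.9. The code was tested on simulated data. Scan dates were not used here.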

Additional observations from a re-analysis of the deposited data

How the results depend on the processing

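Median differences kept their direction over the members for Ra at 12 h (-0.18 to -0.12), for control 48 h against 12 h (-0.40 to -0.30) and for Ra 48 h against 12 h (-0.51 to -0.13) in every alternative run. For Ra at 48 h the median ran from -0.33 to 0.11. Counts of calls moved more, and the cause was not tested except where fewer arrays or genes entered. For Ra at 12 h, 6 members became 1 without a filter, 2 without the intensity trend and 13 with array weights. They became 0 with a 2-fold minimum, 0 in the fit of all 12 arrays and 14 with the replicate block (numbers taken as pairs). Leaving out 1 array gave 1 to 9. Over all genes the count of 1366 became 506 without a filter, 1106 without the intensity trend and 2007 with array weights. It became 89 with a 2-fold minimum, 3 in the fit of 12 arrays and 2351 with the block. With 1 array left out it was 293 to 1388. For Ra at 48 h, 0 became 13 with array weights (3 lower, 10 higher) and stayed 0 with any array left out. Over all genes 0 became 4790 of 10050 with array weights, 641 after quantile normalization, 714 after centring and 1262 in the fit of 12 arrays. With 1 array left out it was 0 to 71. For the difference between the effects, 0 became 1 after quantile normalization, 1 after centring (PSMD1 in both) and 20 with array weights, and was 0 with any array left out; over all genes 2 became 944 after quantile normalization, 856 after centring, 4464 with array weights, 43 with the filter at 7 log2 units, 36 with the replicate block and 1 to 1041 with 1 array left out. For control 48 h against 12 h, 17 became 10 without a filter, 11 of 28 without probe sets that can cross-hybridise and 29 with array weights. It became 1 with a 2-fold minimum and 6 in the fit of 12 arrays. Leaving out 1 array gave 5 to 23, and the replicate block 17. Over all genes 3334 became 2091 without a filter, 2403 of 7245 without those probe sets and 5788 of 10050 with array weights. The 2-fold minimum gave 1087, the fit of 12 arrays 1955, the block 2706 and leaving out 1 array 1429 to 4583. For Ra 48 h against 12 h the count was 0 throughout. The replicate block gave 0 for Ra at 48 h, for the difference between the effects and for Ra 48 h against 12 h. The 48 h samples were not taken as pairs. At 12 h with Ra, the sign turned for PSME4 with the mean of its probe sets (0.0151), for PSMB4 with array weights (0.00301) and when 1 array was left out (-0.0376 to 0.0349), and for PSMD14 without Ra replicate 2 (0.0405; -0.12 to 0.0405 over the arrays left out); none of these passed in any setting. With 3 arrays a group, the spread at 48 h limits what can be seen there: the SE of a member was 0.18 to 0.47, against 0.05 to 0.20 at 12 h. An exact permutation test of 3 against 3 arrays cannot go below 0.1.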

Other observations

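Upstream of the proteasome, 7 genes for ubiquitin, its activating enzymes and the shuttle proteins that carry substrates were measured. By limma none passed for Ra against control at 12 h (0 of 7) or at 48 h (0 of 7), and their median difference was -0.06 at 12 h. UBB, a polyubiquitin gene, had 15.13, 15.10 and 15.17 log2 units with Ra at 12 h, against 15.14, 15.15 and 15.10 in control cells, which overlapped (0.003 ± 0.04, SE). UBA1, the main ubiquitin-activating enzyme, was the single gene of the list that changed with time in control cells, with 12.02, 12.01 and 12.17 at 48 h, against 12.45, 12.51 and 12.53 at 12 h (-0.43 ± 0.08, limma adjusted p = 0.0104). UBB and UBA1 were named after their values were seen.

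Among 12 genes of antigen processing and its interferon control, 4 were higher in control cells at 48 h than at 12 h and 0 were lower by limma, against 16.6% of all genes in each direction. They were IRF1, IRF9, HLA-C and B2M. In the fit of all 12 arrays 1 of the 12 rose (IRF1), against 9.37% of all genes. With the replicate block 1 rose (IRF1), against 13.4% of all genes. The calls of IRF9, HLA-C and B2M were absent in both. The block joins control arrays of 48 h and 12 h by number, and these hardly deviated together (r = 0.02, -0.02 and 0.07 over all genes). Loss of a call there is therefore no sign against it. IRF1, a transcription factor of the interferon response that acts on PSMB9, had 9.49, 8.75 and 8.05 log2 units at 48 h, against 7.38, 7.38 and 7.53 at 12 h (1.33 ± 0.33, limma adjusted p = 0.024). With Ra at 48 h it had 7.38, 6.68 and 7.54, all below the control arrays of 48 h, a difference of -1.56 ± 0.42 that did not pass (limma adjusted p = 0.193) and was -1.30 ± 0.42 without Ra replicate 2. PSMB9 itself did not pass in either comparison. These genes were named after their values were seen.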
